A study of Homo sapiens with 27 samples.

Results

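Immediate early genes are genes that a cell transcribes within minutes of a stimulus, without first making new protein. Their promoters are read by factors that are already present, such as SRF with its partners at CArG boxes and CREB at cyclic AMP response elements, and their messenger RNAs are short-lived. Several encode transcription factors: FOS and JUN proteins pair into the AP-1 dimer, and EGR proteins are zinc-finger activators. MIDN encodes midnolin, which carries nuclear proteins, the products of immediate early genes among them, to the proteasome without ubiquitin. In myeloid cells AP-1 and EGR factors are known for their part in monocyte and macrophage differentiation.

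The set held 10 genes, found by symbol, each on 1 row, among the 57992 genes of the deposited table: FOS, FOSB, JUN, JUNB and ATF3 (AP-1 and related factors), EGR1 and EGR2, IER2 (a nuclear immediate early protein), DUSP1 (a phosphatase that inactivates MAP kinases) and MIDN. They were measured in 3 human lines of acute myeloid leukaemia in which CARM1 had been knocked down. CARM1, also called PRMT4, is an arginine methyltransferase and transcriptional coactivator. MOLM13 and MV411 carry a KMT2A rearrangement, while SKNO1 has the RUNX1-RUNX1T1 fusion, and its medium held 10 ng/mL of GM-CSF, a growth factor of myeloid cells. There were 9 libraries of total RNA per line, taken 3 days after the cells received a constitutive lentiviral shRNA: 3 for the scramble control and 3 for each of the hairpins 1 and 2 against CARM1. All groups thus carried a lentivirus, and no library was of uninfected cells. MIDN was selected on its difference between each CARM1 hairpin and scramble in SKNO1, so every value of that comparison is given as a description, with no test, as are all comparisons of MIDN that involve SKNO1.

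Libraries held 25063577 to 53291599 expected counts. CARM1 itself stood at 16.2 to 28.3 CPM (counts scaled to library size) in the 9 scramble libraries and at 2.62 to 8.74 in the 18 knockdown libraries. Hairpins 1 and 2 left 0.194-fold and 0.166-fold of the scramble level in MOLM13, 0.26-fold and 0.128-fold in MV411 and 0.421-fold and 0.154-fold in SKNO1. RUNX1T1 stood at 56.6 to 112.8 CPM in SKNO1 and at no more than 0.103 elsewhere, and HOXA9 and MEIS1 stood at 23.4 to 103.8 CPM in MOLM13 and MV411 and at no more than 0.0262 in SKNO1. The summed level of 16 markers of other cell types was 2.48 to 3.42 CPM in scramble and 1.39 to 2.30 with knockdown in MOLM13, 5.15 to 6.23 and 2.56 to 5.66 in MV411, and 21.0 to 59.2 and 25.5 to 57.7 in SKNO1. HBB, the erythroid beta-globin gene, was at 0 in all 9 scramble libraries and at up to 0.786 CPM with knockdown. Mitochondrial and abundant structured RNAs took 37.2% to 39.8% of counts in scramble and 41.9% to 52.7% with knockdown in MOLM13, 37.3% to 39.9% and 42.7% to 51.1% in MV411, and 18.4% to 20.8% and 24.4% to 29.5% in SKNO1. With those RNAs left out, the same 6 members were called in the knockdown comparison of MOLM13, the same 4 with hairpin 1 in MV411 and the same 5 between the hairpins of MV411. The part of the marker levels was not tested.

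The sequences just upstream of 3 of the genes are shown because they differ in the motifs they hold: EGR1 has CArG boxes, DUSP1 the cyclic AMP response element, and MIDN neither. The 250 bases before the RefSeq start (GRCh38.p14) were searched on both strands. Capitals mark a CArG box in EGR1 and TGACGTCA in DUSP1. The EGR1 stretch is chr5:138465229-138465478 on the plus strand, that of DUSP1 is chr5:172771196-172771445 on the minus strand, and that of MIDN is chr19:1249638-1249887 on the plus strand, inside an intron of the longer MIDN transcripts of GENCODE 29.
EGR1: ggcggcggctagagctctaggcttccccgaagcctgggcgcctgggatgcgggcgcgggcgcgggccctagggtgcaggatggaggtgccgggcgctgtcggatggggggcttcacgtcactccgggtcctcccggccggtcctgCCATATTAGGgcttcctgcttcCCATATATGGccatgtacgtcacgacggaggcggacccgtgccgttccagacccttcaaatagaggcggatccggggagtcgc
DUSP1: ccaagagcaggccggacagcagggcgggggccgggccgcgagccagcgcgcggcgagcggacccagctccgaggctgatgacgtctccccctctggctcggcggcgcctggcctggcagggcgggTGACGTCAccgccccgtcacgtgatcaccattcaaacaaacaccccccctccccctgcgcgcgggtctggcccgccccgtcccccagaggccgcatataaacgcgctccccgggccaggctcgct
MIDN: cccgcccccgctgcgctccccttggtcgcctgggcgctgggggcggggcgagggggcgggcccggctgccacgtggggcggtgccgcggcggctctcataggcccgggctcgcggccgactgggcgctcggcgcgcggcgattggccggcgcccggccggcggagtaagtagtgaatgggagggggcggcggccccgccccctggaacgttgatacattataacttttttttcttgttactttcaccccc

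A CArG box was found in 2 of the 10 upstream stretches, 2 boxes in EGR1 and 1 in EGR2, against 1.16% of 35116 promoters. The full response element TGACGTCA lay in DUSP1 alone among the 10 (1.65% of promoters), and its core TGACG, which the full element contains, lay in 8 of 10 (21.2%), all but ATF3 and MIDN. The AP-1 site TGANTCA lay in none of the 10 (6.57% of promoters), and the EGR site GCGNGGGCG lay in EGR1 and MIDN (8.41%). TATAAA was found in 5 of 10 (10.7%): FOS, FOSB, JUNB, ATF3 and DUSP1. In GENCODE 29 the ATF3 window lay in an intron of 7 of 11 transcripts, in 6 of them directly before an internal exon. The EGR2 and MIDN windows each lay in an intron of 2 of 6 transcripts, and the JUN window inside the exon of its 1 transcript. These are matches of letters in a window of fixed length and say nothing of binding or of the genes' other start sites.

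In scramble libraries the set was expressed over a wide range, and SKNO1 stood lowest for most of it. On the scale of CPM per kilobase of exon, JUNB was the highest member in every line, at 27.04 ± 10.0 (SD, n = 3) in MOLM13, 19.8 ± 7.01 in MV411 and 7.88 ± 2.08 in SKNO1. EGR2 was the lowest in every line, at 0.0709 ± 0.0331, 0.0477 ± 0.0210 and 0.0473 ± 0.0167. MIDN stood at 2.18 ± 0.373 in MOLM13, 2.36 ± 0.620 in MV411 and 0.371 ± 0.0408 in SKNO1.

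FOS (chr14:75278774-75282230, plus strand, GRCh38) stood at 18.7, 43.6 and 20.7 CPM in the scramble libraries of MOLM13, at 11.8, 10.6 and 22.2 in MV411 and at 1.47, 1.24 and 1.72 in SKNO1. The SKNO1 values lay far below those of both other lines, while the ranges of MOLM13 and MV411 met. ATF3 (chr1:212565334-212620777, plus strand), a stress-induced partner and repressor of AP-1, stood at 2.55, 6.84 and 6.73 CPM in MOLM13, at 5.62, 3.38 and 4.29 in MV411 and at 0.336, 0.524 and 0.323 in SKNO1. Of the members other than MIDN, all but JUN and EGR2 were lower in SKNO1 scramble than in MOLM13 scramble, where 25.3% of 21262 genes were lower. MIDN is set apart as a description, since its scramble level in SKNO1 entered its selection. FOS was lower by a log2 fold change of -4.22 ± 0.54 (SE; edgeR adjusted p = 1.93e-07), ATF3 by -3.76 ± 0.50 (adjusted p = 4.18e-07), EGR1 by -2.66 ± 0.65 (adjusted p = 0.00125), DUSP1 by -1.79 ± 0.38 (adjusted p = 0.000283) and JUNB by -1.78 ± 0.34 (adjusted p = 7.44e-05). FOSB, at -1.66 ± 0.68 (adjusted p = 0.0454), and IER2, at -0.70 ± 0.27 (0.0337), were nearer the threshold: FOSB lost its call whichever of the 6 libraries was left out (adjusted p up to 0.122) and IER2 in 4 of 6 cases (up to 0.206), and neither passed with the replicate block. MIDN differed by -2.55 ± 0.31. JUN and EGR2 did not pass.

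Against MV411 scramble, of the members other than MIDN, FOS, ATF3 and JUNB alone were lower in SKNO1, beside 25.7% of all genes. FOS was lower by -3.33 ± 0.52 (edgeR adjusted p = 5.15e-06), ATF3 by -3.48 ± 0.50 (1.33e-06) and JUNB by -1.33 ± 0.33 (0.00149). MIDN, as a description, differed by -2.67 ± 0.31. DUSP1, at -0.87 ± 0.38 (adjusted p = 0.0608), did not pass. Between MOLM13 and MV411, EGR1 was the only member that passed, higher in MOLM13 by 1.74 ± 0.63 (adjusted p = 0.0412), where 12.3% of genes were higher. EGR1 fell below the threshold on leaving out MOLM13 scramble replicate 2 or 3 or any MV411 scramble library. MIDN differed by -0.12 ± 0.29 between these lines (adjusted p = 0.831).

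**Figure D1:**
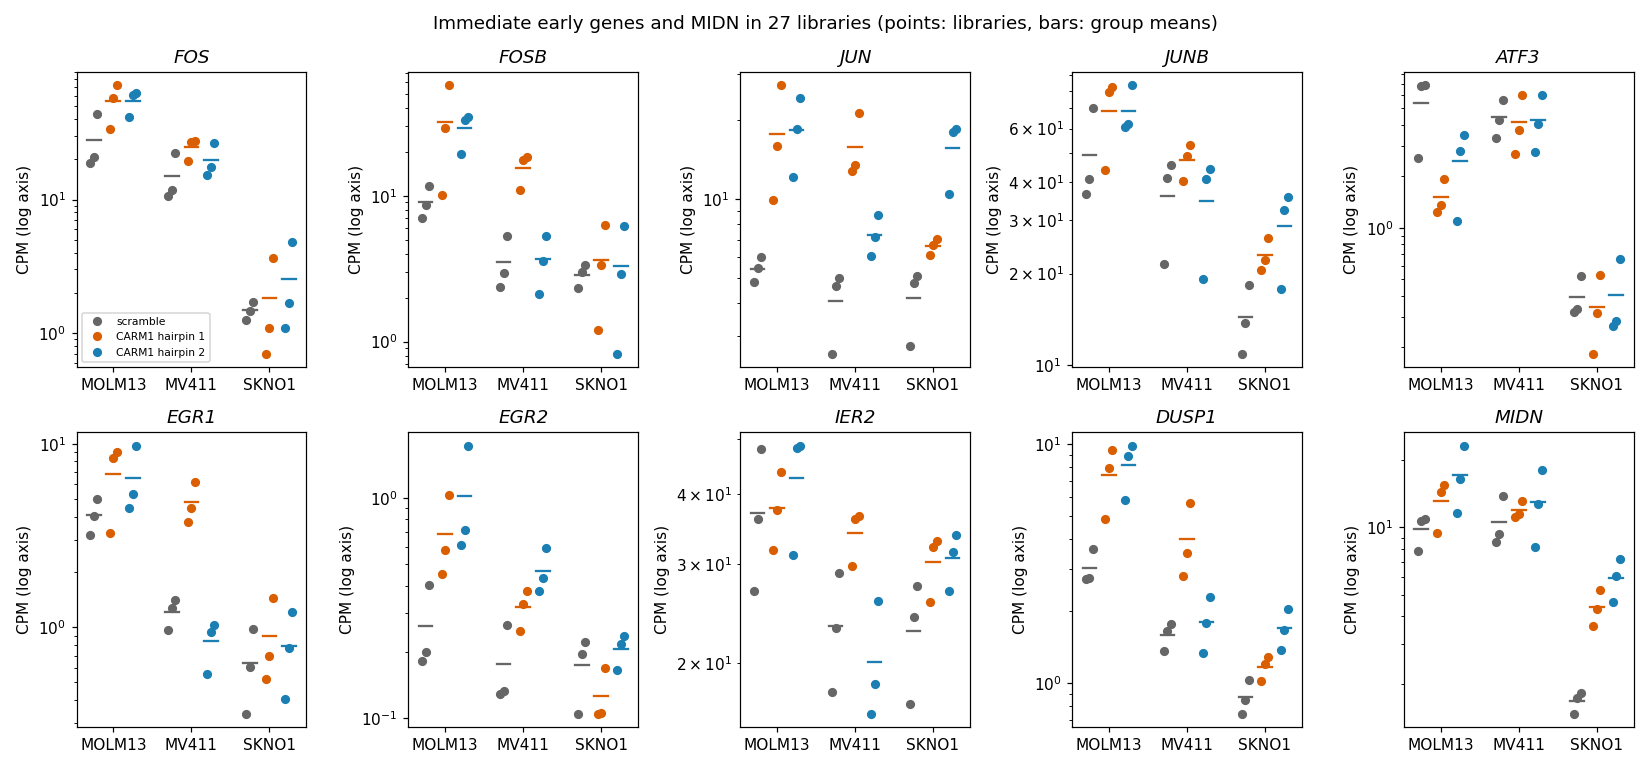
Level of each of the 10 genes in CPM on a log axis, by line, with grey points for scramble and orange and blue points for CARM1 hairpins 1 and 2 (3 libraries a group, in order of level) and a bar at each group mean. JUN lies above scramble in every knockdown library of all 3 lines, the orange points of FOSB and EGR1 stand apart in MV411, and MIDN in SKNO1 rises from 1.46 to 1.82 CPM in scramble to 3.62 to 7.19 with knockdown.

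With CARM1 knockdown in MOLM13, 5 of the 10 genes were higher than in scramble (6.48% of 17732 genes were) and 1, ATF3, was lower (9.09% of genes were). The median log2 fold change was 0.858 over the 10 members and 0.0521 over all genes. In bulk libraries such as these, more RNA per cell and more cells that express a gene cannot be told apart. JUN, DUSP1 and EGR2 were higher in all 6 knockdown libraries than in any scramble library, as were 8.8% of genes.

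JUN (chr1:58780788-58784327, minus strand) stood at 4.80, 6.003 and 5.45 CPM in MOLM13 scramble, at 9.89, 15.9 and 27.2 with hairpin 1 and at 24.2, 12.1 and 18.5 with hairpin 2. The groups did not overlap, and the knockdown libraries were higher by 1.74 ± 0.31 on the log2 scale (SE; edgeR adjusted p = 0.00375). FOSB (chr19:45467995-45475179, plus strand) stood at 8.66, 11.7 and 7.01 CPM in scramble, at 10.1, 29.2 and 57.2 with hairpin 1 and at 33.2, 19.5 and 34.6 with hairpin 2. Only hairpin 1 replicate 1 lay within the scramble range, and the difference was 1.75 ± 0.43 (adjusted p = 0.0198). FOS rose from the scramble values above to 33.7, 71.6 and 58.0 CPM with hairpin 1 and 41.8, 60.3 and 63.0 with hairpin 2, a difference of 0.99 ± 0.30 (adjusted p = 0.047, or 0.064 with the hairpins fitted as separate groups). Scramble replicate 2 of FOS, at 43.6 CPM, lay inside the knockdown range. JUNB (chr19:12791496-12793315, plus strand), an AP-1 member that can oppose JUN, gave 0.49 ± 0.25 and did not pass (adjusted p = 0.21).

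ATF3 moved the other way in MOLM13. It stood at 1.36, 1.94 and 1.24 CPM with hairpin 1 and at 2.801, 3.50 and 1.10 with hairpin 2, lower than scramble by -1.42 ± 0.41 (edgeR adjusted p = 0.0396). Scramble replicate 1, at 2.55 CPM, lay inside the knockdown range, and the other two scramble libraries lay above all 6 knockdown libraries.

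DUSP1 (chr5:172768090-172771195, minus strand) stood at 2.71, 3.65 and 2.75 CPM in MOLM13 scramble, at 4.86, 7.96 and 9.44 with hairpin 1 and at 9.84, 5.81 and 8.88 with hairpin 2. It was higher by 1.37 ± 0.26 (edgeR adjusted p = 0.00521). EGR2 (chr10:62811996-62919900, minus strand) was a gene of few counts, 7, 14 and 10 in scramble, 11, 18 and 40 with hairpin 1 and 17, 23 and 66 with hairpin 2. Its groups did not overlap in CPM, and the difference was 1.73 ± 0.50 (adjusted p = 0.0365). EGR1 (chr5:138465490-138469315, plus strand) ranged from 3.18 to 4.97 CPM in scramble and from 3.26 to 9.77 with knockdown and did not pass, at 0.72 ± 0.34 (adjusted p = 0.173). IER2 (chr19:13150415-13154908, plus strand) gave 0.13 ± 0.21 (adjusted p = 0.719).

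MIDN (chr19:1248553-1259140, plus strand) stood at 10.64, 10.89 and 7.86 CPM in MOLM13 scramble, at 14.4, 15.5 and 9.42 with hairpin 1 and at 16.6, 23.3 and 11.6 with hairpin 2. Of the 6 knockdown libraries 5 were above every scramble library, and the difference of 0.64 ± 0.27 did not pass (edgeR adjusted p = 0.125).

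Each hairpin alone gave much the same picture in MOLM13, with fewer calls, over the same 3 scramble libraries. With hairpin 1, JUN (1.70 ± 0.35, edgeR adjusted p = 0.0196) and DUSP1 (1.28 ± 0.30, adjusted p = 0.0302) were higher, beside 2.13% of genes. With hairpin 2, JUN (1.78 ± 0.35, adjusted p = 0.0149), DUSP1 (1.45 ± 0.30, adjusted p = 0.0166) and EGR2 (1.99 ± 0.54, adjusted p = 0.0438) were higher, beside 3.39%. The other fold changes of the genes called in the pooled comparison were 0.97 ± 0.35 and 1.01 ± 0.35 for FOS, 1.81 ± 0.49 and 1.69 ± 0.49 for FOSB, and -1.83 ± 0.49 and -1.10 ± 0.48 for ATF3 with hairpins 1 and 2, while EGR2 gave 1.41 ± 0.54 with hairpin 1. MIDN gave 0.42 ± 0.29 with hairpin 1 and 0.84 ± 0.29 with hairpin 2 and did not pass (edgeR adjusted p = 0.434 and 0.0918). With hairpin 2 it passed with DESeq2 (adjusted p = 0.0442), with the replicate block (edgeR adjusted p = 0.0359) and with no filter on low counts (0.0261). The fit with no filter called more genes of every kind, 2897 in place of 1671. Between the hairpins of MOLM13, edgeR called 0 of 10 members and 0% of 17732 genes. At an unadjusted p under 0.05 there were 0 members, beside 1.89% of genes, and DESeq2 called 0 members and 1 gene. The members' fold changes there ran from -0.12 ± 0.47 for FOSB to 0.74 ± 0.49 for ATF3.

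The calls in MOLM13 rested on few libraries. JUN and DUSP1 passed whichever library was left out. The count of called members fell from 6 to 3 without scramble replicate 1, scramble replicate 2, hairpin 1 replicate 3 or hairpin 2 replicate 3, and to 2 without scramble replicate 3, and FOS lost its call in 7 of the 9 cases, ATF3 in 6, EGR2 in 5 and FOSB in 3. With hairpin 1, JUN and DUSP1 kept their calls only without hairpin 1 replicate 1, and lost them on leaving out any of the other 5 libraries. With hairpin 2, DUSP1 lost its call without scramble replicate 3, JUN without scramble replicate 2 or 3, and EGR2 in 5 of 6 cases, all but hairpin 2 replicate 1.

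**Figure D2:**
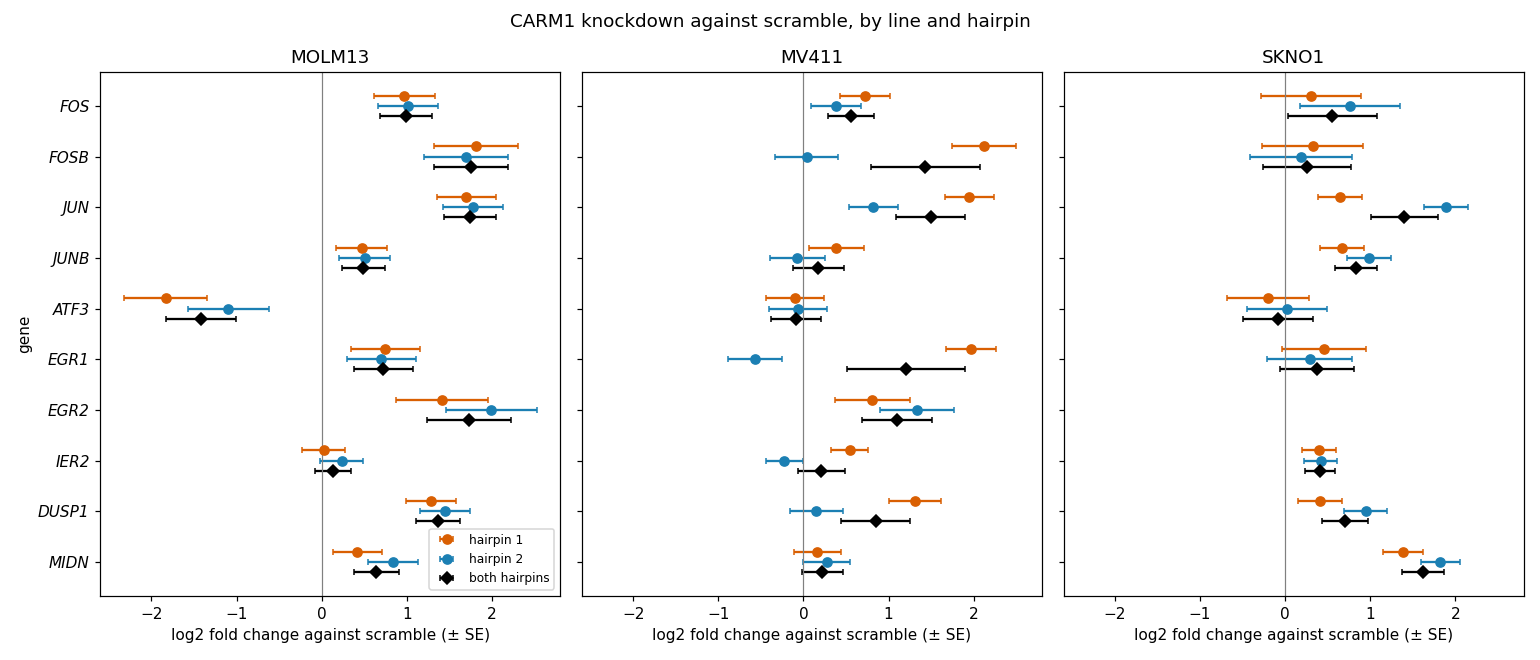
Log2 fold change against scramble with its standard error for each gene in each line, with orange for hairpin 1, blue for hairpin 2 and black diamonds for both together (EGR2 in SKNO1 was below the filter on low counts). The hairpins overlap in MOLM13, part in MV411 for FOSB, EGR1, DUSP1 and IER2, and part for JUN in both MV411 and SKNO1. All SKNO1 values are a description.

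In MV411 the pooled comparison called 0 of 10 members with edgeR, beside 5.43% of 17816 genes. At an unadjusted p under 0.05 there were 3, FOSB, JUN and EGR2, beside 20% of genes. DESeq2 called 1 member, JUN, and 1764 genes. JUN gave 1.49 ± 0.40 (edgeR adjusted p = 0.0549) and was the only member higher in all 6 knockdown libraries than in any scramble library, as were 5.92% of genes. The median of the 10 was 0.704 (0.0143 over all genes), with FOSB at 1.43 ± 0.64, EGR1 at 1.21 ± 0.69, EGR2 at 1.10 ± 0.41, DUSP1 at 0.85 ± 0.41, FOS at 0.56 ± 0.27, MIDN at 0.22 ± 0.24, IER2 at 0.21 ± 0.27, JUNB at 0.18 ± 0.30 and ATF3 at -0.09 ± 0.30. JUN passed without hairpin 2 replicate 3.

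With hairpin 1 in MV411, 4 members were higher than scramble, beside 2.37% of genes. EGR1 stood at 0.965, 1.40 and 1.27 CPM in scramble and at 4.44, 3.75 and 6.21 with hairpin 1, a difference of 1.97 ± 0.30 (edgeR adjusted p = 0.00466). FOSB stood at 2.36, 2.95 and 5.30 CPM in scramble and at 17.5, 10.91 and 18.3 with hairpin 1, higher by 2.12 ± 0.37 (adjusted p = 0.00783). For both genes, as for JUN, DUSP1 and the uncalled IER2 (edgeR adjusted p = 0.179), every hairpin 1 library lay above every scramble library. The share of all genes that did so is not given here. JUN stood at 2.56, 4.997 and 4.66 CPM in scramble and at 13.5, 12.7 and 21.3 with hairpin 1, higher by 1.95 ± 0.29 (adjusted p = 0.00432). DUSP1 stood at 1.36, 1.76 and 1.66 CPM in scramble and at 3.49, 2.81 and 5.67 with hairpin 1, higher by 1.31 ± 0.31 (adjusted p = 0.0285). Replicate numbers paired the libraries of MV411, and with the number as a block 6 members passed, since FOS (0.78 ± 0.16, adjusted p = 0.0115) and IER2 (0.57 ± 0.15, adjusted p = 0.0354) were added. Without the block FOS gave 0.72 ± 0.29 and IER2 0.54 ± 0.22, EGR2 gave 0.81 ± 0.45 and MIDN 0.16 ± 0.27. Leaving out any 1 library kept FOSB, JUN and EGR1, and DUSP1 kept its call only without hairpin 1 replicate 2.

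With hairpin 2 in MV411, which left less CARM1 than hairpin 1, edgeR called 0 of 10 members where 18.6% of genes were called. There were 2 members at an unadjusted p under 0.05, JUN and EGR2, beside 31.2% of all genes. DESeq2 called 1 member and 3883 of 17816 genes. EGR1 stood at 0.938, 1.03 and 0.553 CPM, within or below the scramble range, and FOSB at 2.13, 3.59 and 5.33. JUN stood at 7.15, 8.73 and 6.08 CPM, above every scramble library (0.82 ± 0.29, adjusted p = 0.071). The fold changes were 0.04 ± 0.37 for FOSB, -0.57 ± 0.32 for EGR1, 0.15 ± 0.31 for DUSP1, -0.22 ± 0.22 for IER2, 0.27 ± 0.27 for MIDN and 1.34 ± 0.43 for EGR2. With the replicate block 2 members passed, JUN (0.86 ± 0.26, adjusted p = 0.0315) and EGR2 (1.36 ± 0.44, adjusted p = 0.0423). EGR2 also passed without scramble replicate 2.

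Set directly against each other in MV411, the hairpins differed for 5 of 10 members, each lower with hairpin 2, as were 5.62% of genes. EGR1 was lower by -2.53 ± 0.31 (edgeR adjusted p = 0.00104), FOSB by -2.08 ± 0.37 (0.0055), DUSP1 by -1.16 ± 0.31 (0.0333), JUN by -1.13 ± 0.28 (0.0257) and IER2 by -0.77 ± 0.22 (0.0437). IER2 stood at 29.8, 36.1 and 36.5 CPM with hairpin 1 and at 18.4, 25.8 and 16.3 with hairpin 2, where the scramble libraries ran from 17.8 to 28.9. For none of these 5 genes did the hairpins overlap, nor did they for EGR2, which was not called. The share of all genes without overlap is not given here, so this separation is a description. FOS (-0.34 ± 0.29), EGR2 (0.53 ± 0.41) and MIDN (0.11 ± 0.27) did not pass. The same 5 genes passed with DESeq2, with RLE scaling, with no filter on low counts and with the replicate block. EGR1 and FOSB passed whichever library was left out, and they alone passed without hairpin 1 replicate 1 or 3 or without hairpin 2 replicate 1 or 3.

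**Figure D3:**
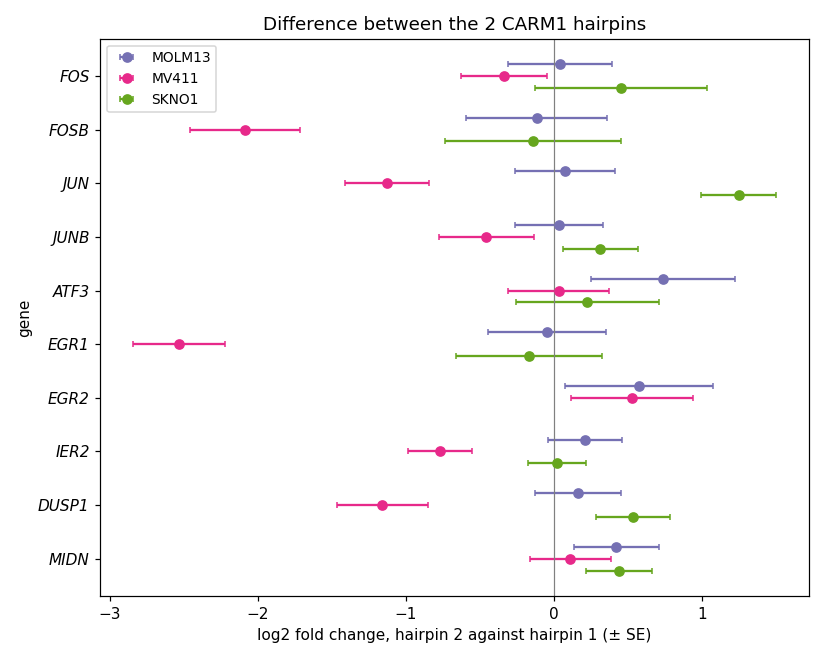
Log2 fold change of hairpin 2 against hairpin 1 with its standard error for each gene, coloured by line. EGR1 and FOSB stand at -2.53 and -2.08 in MV411, and JUN stands at -1.13 in MV411 and 1.25 in SKNO1.

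The difference of the knockdown effect between MOLM13 and MV411 was tested in a fit of all 27 libraries. It passed for 0 of 10 members and 0% of 21262 genes with edgeR. There was 1 member at an unadjusted p under 0.05, ATF3, beside 4.45% of genes, and DESeq2 called 0 members and 15 genes. ATF3 differed by -1.37 ± 0.53 (edgeR adjusted p = 0.971), EGR2 by 0.62 ± 0.62 and EGR1 by -0.50 ± 0.75. These errors leave room for differences of the size of the effects themselves.

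In SKNO1, the line in which MIDN was chosen, MIDN stood at 1.72, 1.46 and 1.82 CPM in scramble, at 5.26, 3.62 and 4.30 with hairpin 1 and at 4.62, 6.07 and 7.19 with hairpin 2. The knockdown libraries lay above scramble without overlap, and their fold change was 1.62 ± 0.25, or 1.38 ± 0.23 with hairpin 1 and 1.82 ± 0.23 with hairpin 2. Even so, the highest knockdown library of SKNO1, at 7.19 CPM, stayed below the lowest scramble library of MOLM13 or MV411, at 7.86. Across all genes 0.0326% of 18430 were higher in the pooled comparison, 0.255% with hairpin 1 and 5.54% with hairpin 2. MIDN was chosen on this comparison, so its separation from scramble and its place among these genes largely follow from the choice. Of the other members, JUN alone had all 6 knockdown libraries above scramble, beside 4.63% of genes. JUN stood at 4.77, 2.75 and 5.06 CPM in scramble, at 6.70, 6.09 and 7.004 with hairpin 1 and at 10.5, 18.1 and 18.5 with hairpin 2.

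The other members in SKNO1 are given as fold changes alone. JUN gave 1.40 ± 0.40 over both hairpins (0.65 ± 0.26 with hairpin 1 and 1.89 ± 0.26 with hairpin 2), JUNB 0.84 ± 0.25 (0.67 ± 0.26 and 0.99 ± 0.26) and DUSP1 0.70 ± 0.27 (0.41 ± 0.26 and 0.95 ± 0.25). FOS gave 0.55 ± 0.52, IER2 0.41 ± 0.18, EGR1 0.37 ± 0.43, FOSB 0.26 ± 0.52 and ATF3 -0.09 ± 0.41, and EGR2, at 4 to 11 counts a library, was below the filter. FOS and FOSB had by far the widest spread among the SKNO1 knockdown libraries, and it ran with the replicate number: FOSB counts were 127, 298 and 50 in replicates 1 to 3 of hairpin 1 and 122, 258 and 35 with hairpin 2, and FOS counts were 42, 173 and 29, and 71, 201 and 46. The scramble libraries did not share the pattern, with 142, 106 and 166 counts of FOSB and 70, 57 and 85 of FOS.

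Between the hairpins of SKNO1, which the choice of the other members did not use, 1 of the 8 members tested was called, beside 4.52% of genes higher. JUN was higher with hairpin 2 by 1.25 ± 0.26 (edgeR adjusted p = 0.00961), and lost its call without hairpin 2 replicate 2. DUSP1 gave 0.53 ± 0.25 (adjusted p = 0.21), and MIDN, as a description, 0.44 ± 0.22. Hairpin 2 left less CARM1 than hairpin 1 in both MV411 and SKNO1, and any relation of JUN to the CARM1 level was not tested. JUN was lower with hairpin 2 in MV411 and higher with it in SKNO1. That difference between the lines, a comparison chosen after its values were seen, was 2.37 ± 0.47 (adjusted p = 0.018), where 0.141% of genes were higher, and fell below the threshold without MV411 hairpin 1 replicate 3, MV411 hairpin 2 replicate 1 or 3, SKNO1 hairpin 1 replicate 2, or SKNO1 hairpin 2 replicate 2 or 3. EGR1 (2.36 ± 0.65, adjusted p = 0.168), FOSB (1.94 ± 0.82, 0.476) and DUSP1 (1.69 ± 0.42, 0.0985) did not pass, and MIDN gave 0.33 ± 0.39.

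GC content moved with the fold changes in SKNO1. Over 18322 genes with a GC value, Spearman's rho between exon GC content and the log2 fold change of knockdown was 0.366, as a description across genes of the same 9 libraries, against 0.0525 in MOLM13 and -0.0472 in MV411. By hairpin the SKNO1 values were 0.484 (hairpin 1) and 0.179 (hairpin 2). The median fold change in SKNO1 ran from -0.176 in the decile of genes lowest in GC to 0.30 in the highest decile. MIDN, at 66.1% GC, was in the highest decile, with JUNB (64.9%) and IER2 (64.0%). Measured from the median of its decile, MIDN stood at 1.32, JUN at 1.27, DUSP1 at 0.573, JUNB at 0.537 and IER2 at 0.11. The part of GC content in these results was not tested.

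**Figure D4:**
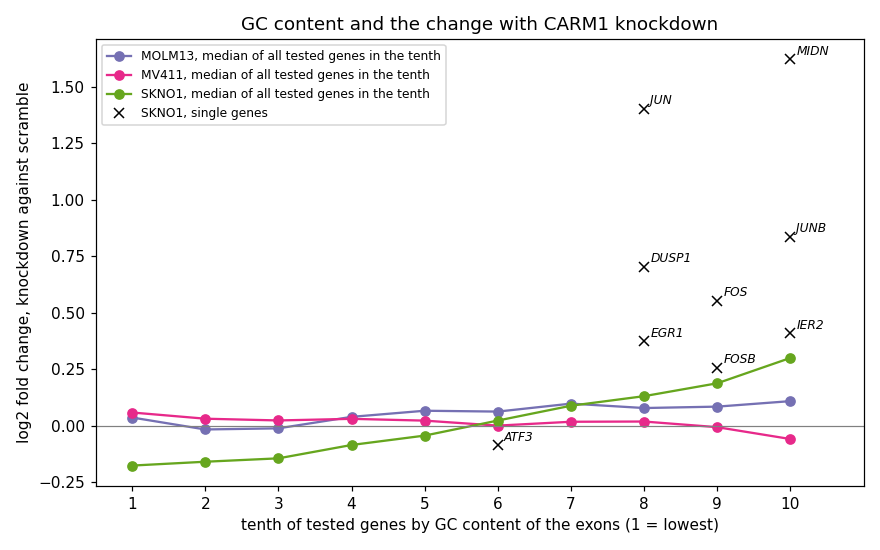
Median log2 fold change of knockdown against scramble for all tested genes in each decile by exon GC content (lines, one per cell line), with the members' own SKNO1 values as crosses. The SKNO1 line climbs from -0.176 to 0.30 while the other lines stay near 0, and MIDN and JUN lie well above the medians of their deciles.

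The genes whose pattern was most like MIDN were sought by Pearson's r of log2 CPM, centred within each line, over the 27 libraries and 10254 genes of mean log2 CPM of at least 2. They were MAP3K11 (r = 0.887), LRCH4 (0.882), PIP5K1C (0.880), RAB11B (0.879) and TRAPPC12 (0.879). No member was among them, and their GC contents ran from 55.0% to 65.4%, against a median of 49.3% among the candidates. Of the members, JUNB was the nearest to MIDN (r = 0.746) and FOS was far from it (0.143). The genes most like FOS were FOSB (r = 0.771), FNDC3A (0.733), TBCEL (0.720), ZNF225 (0.690) and PCMTD1 (0.672). JUN and DUSP1 had the highest r of all pairs of members over the 27 libraries (0.927), with 0.985 in MOLM13, 0.895 in MV411 and 0.947 in SKNO1 over 9 libraries each. In MV411 FOSB with DUSP1 was higher, at 0.906. These values are descriptions, and the libraries share groups, depth and scaling.

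Genes that act beside the members were counted from lists written from general knowledge. They are given for the knockdown comparisons of MOLM13, where 6.48% of all genes were higher and 9.09% lower, and of MV411, where 5.43% were called in either direction. Of 32 other immediate early and primary response genes tested in MOLM13, 12 were higher and 1 lower, with a median log2 fold change of 0.601 (0.0521 over all genes). BTG2, an antiproliferative gene, was higher by 1.62 ± 0.26 (edgeR adjusted p = 0.00217), KLF4, a monocytic transcription factor, by 1.42 ± 0.22 (0.00186) and IER3 by 1.13 ± 0.18 (0.0019), and MYC was lower by -0.86 ± 0.18 (0.00919). In MV411, 2 of 29 were higher, BTG2 by 1.36 ± 0.14 (adjusted p = 0.000444) and KLF4 by 1.24 ± 0.23 (0.00837), and 0 were lower, a share near that of all genes, with a median of 0.661 (0.0143 over all genes). By hairpin in MV411, 13 of the 29 were higher and 0 lower with hairpin 1 (2.37% of all genes were higher), and 4 were higher and 1 lower with hairpin 2 (18.6% of all genes were called). Between the hairpins 12 were lower with hairpin 2 (5.62% of all genes were) and 1 was higher. The comparisons of the hairpins with scramble share the scramble libraries.

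Of the other AP-1 and small MAF factors few were called, so no direction can be read from these counts. In MOLM13, 0 of 11 were higher and 1 lower, JDP2, a repressor of AP-1 (-0.88 ± 0.23, edgeR adjusted p = 0.0278). In MV411, 1 of 12 was higher, BATF2 (1.66 ± 0.29, adjusted p = 0.00563), and 2 were lower, BATF3 (-1.65 ± 0.36, 0.0212) and FOSL2 (-0.51 ± 0.12, 0.0328). Among MAP kinase phosphatases and feedback inhibitors, DUSP10, which acts on p38 and JNK, was higher in MOLM13 (1.02 ± 0.21, adjusted p = 0.00751) and MV411 (0.66 ± 0.15, 0.0231). It was the only one of 11 called in MV411, and of 13 in MOLM13 DUSP5, an ERK phosphatase, was lower (-0.73 ± 0.21, 0.035).

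Of 26 transcription factors and kinases that drive these promoters, 1 was called in MOLM13 and 1 in MV411: SRF was lower in MOLM13 (-0.75 ± 0.18, edgeR adjusted p = 0.0163) and ELK3, an SRF partner, was higher in MV411 (0.66 ± 0.15, 0.0237). Of 16 genes that bind AU-rich elements or remove poly(A) tails, the machinery that turns over these short-lived messages, 6 were lower and 2 higher in MOLM13, beside the 9.09% and 6.48% of all genes. ELAVL1, which stabilises such messages, was lower by -0.63 ± 0.10 (adjusted p = 0.00271), CNOT6L and CNOT6, deadenylases, by -0.67 ± 0.13 (0.00565) and -0.64 ± 0.13 (0.00975), and ZFP36, which destabilises them, was higher by 0.69 ± 0.12 (0.0033). In MV411 edgeR called 0 of the 16, and 5 had an unadjusted p under 0.05, beside 20% of all genes.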

How the data were processed

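RNA was harvested with Trizol and RNeasy columns and sequenced from TruSeq Total Stranded libraries after Ribo-Zero depletion, per the labels' protocols. The deposited table holds expected counts of genes, made by the authors with STAR 2.5.3 on GRCh38.p7 and RSEM (version not given), per the submitters' processing notes. RSEM shares reads that fit several genes: 37% of the values of JUNB and 22.2% of those of IER2 were not whole (tolerance 1e-09), and those of the other members were. The strand setting of the counting is not given in the sources used here, so reads of genes on opposite strands (FOSB with ERCC1, JUNB with HOOK2, IER2 with AC011446.2, DUSP1 with AC022217.3) cannot be told apart.

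Counts were rounded and fitted in R 4.3.3 with edgeR 4.0.16: filterByExpr (minimum count 10, minimum total 15), TMM, and the two-sided quasi-likelihood F-test, Benjamini-Hochberg adjusted over all genes tested, threshold 0.05. Knockdown was fitted in the 9 libraries of a line with both hairpins as 1 group, hairpins in the same libraries as 3 groups, and differences between lines in all 27 libraries. Fold changes, on the log2 scale, carry the fit's standard error; log2 CPM used a prior count of 2, and CPM per kilobase the exon union of GENCODE 29, which held 57388 of 57992 identifiers. Whether replicates were separate cultures is not stated, so p-values measure only the spread between these samples. SKNO1 scramble replicates 1 and 3 were closer than any other pair (chi-square per gene 7.75, next 23.2). Same-numbered libraries of MV411 deviated from their group means together (9 of 9 correlations above 0.1, from 0.139 to 0.782), so blocked values are given there; in MOLM13 and SKNO1 5 of 9 did.

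The members, the gene lists and the comparisons were chosen with earlier results of these data known. Members and CARM1 were always named; from other lists, up to 3 genes in the list's main direction and 1 in the other, by smallest p; and the 5 genes most like MIDN and FOS. Promoter sequences are from RefSeq, which held all 10 members. The fits were tested on simulated data. Alternatives were DESeq2 1.42.0, RLE scaling, removal of 1017 mitochondrial and structured RNA genes, no filter on low counts, the replicate block, hairpins as separate groups and leaving out each library; values relative to genes of like GC content were added after the data were seen.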

Additional observations from a re-analysis of the deposited data

Results flagged for a closer look

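JUNB in MV411 hairpin 2 replicate 3 stood at 19.2 CPM, below the other 5 knockdown libraries of that line at 40.4 to 53.2. On the scale of log2 CPM, to which the limit was applied, the gap was 0.731 of the whole range. JUNB in MV411 was the only one of 30 groups of 6 knockdown libraries (10 genes, 3 lines) past Dixon's limit of 0.625, which chance passes in about 1 group in 20. MV411 scramble replicate 1 was also low in JUNB, at 21.6 CPM.

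The difference of JUN between hairpin 2 and hairpin 1 had opposite signs in 2 lines. All 3 hairpin 2 libraries were below all 3 hairpin 1 libraries in MV411 and above them in SKNO1, and the difference between the lines was 2.37 on the log2 scale. That comparison was chosen after its values were seen, so its edgeR adjusted p of 0.018 gives no independent support. The call was lost in 6 of the 12 fits that left out 1 library (adjusted p up to 0.0736).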

How the results depend on the processing

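Of the single-gene values, 588 were unchanged under another setting, while 30 gained a call, 6 lost one, 3 reversed and 2 moved. Without 1 library 663 were unchanged, 7 gained a call, 79 lost one, 15 reversed and 1 moved. For tested values, unchanged means the same direction and side of the threshold. For descriptions and values relative to genes of like GC content, it means a shift below the gene's mean SD within groups. Moved means a larger shift. The threshold was not used there, and a change of sign counted only where the value passed in the main fit. The number of members called changed as follows. In the MOLM13 knockdown comparison it was 5 in place of 6 with the hairpins as separate groups (FOS lost). In the MV411 knockdown comparison it was 1 (JUN) in place of 0 with DESeq2, with no filter and with the hairpins as separate groups. With hairpin 1 in MOLM13 it was 4 with DESeq2 and 5 with no filter, in place of 2, and with hairpin 2 it was 6 and 7, and 4 with the block, in place of 3. With hairpin 1 in MV411 it was 5 with no filter and 6 with the block, in place of 4. With hairpin 2 in MV411 it was 1 with DESeq2 or no filter and 2 with the replicate block. For MOLM13 against MV411 scramble it was 2 with DESeq2 and 0 with the block, where EGR1 gave 1.73 (adjusted p = 0.192). For the hairpin difference of SKNO1 against MV411 it was 3 with DESeq2 and 4 with no filter. For SKNO1 against MOLM13 scramble, with MIDN counted as a description, it was 6 with the block in place of 8. For SKNO1 knockdown and hairpins against scramble no counts of members are given, since MIDN was chosen on those values. Over all genes, 8 passed in SKNO1 knockdown, against 655 with DESeq2 and 0 with the block. The block moved the count of genes from 1159 to 2250 with hairpin 1 and from 2046 to 3516 between hairpins in MV411, and from 98 to 458 with hairpin 1 in SKNO1. It ended the calls of DUSP1 with hairpin 1 (adjusted p = 0.052) and EGR2 with hairpin 2 (0.0552) in MOLM13, and of FOSB (0.3) and IER2 (0.19) in SKNO1 against MOLM13 scramble.

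Values near 0 changed sign. FOSB between MOLM13 hairpins was 0.046 with the block, MIDN in MOLM13 against MV411 scramble 0.090 with the block, and EGR1 in the effect of MOLM13 against MV411 0.0037 with separate hairpins. As descriptions in SKNO1 knockdown, FOSB ran from -0.0093 to 0.44 and ATF3 from -0.36 to 0.19 without 1 library. Among tested values without 1 library, the ranges were -0.064 to 0.37 for IER2 in MOLM13 knockdown, and in MV411 knockdown -0.099 to 0.36 for JUNB and -0.26 to 0.11 for ATF3. They were -0.33 to 0.45 for FOSB, -0.071 to 0.32 for DUSP1 and -0.056 to 0.52 for MIDN with hairpin 2 in MV411, -0.54 to 0.58 for FOSB between MOLM13 hairpins, and -0.21 to 0.36 between MV411 hairpins and -0.23 to 0.12 in MOLM13 against MV411 scramble for MIDN. Left-out libraries moved the number of members called to 2 to 5 in MOLM13 knockdown, 0 to 3 with each MOLM13 hairpin, 3 to 4 with MV411 hairpin 1, 0 to 1 in MV411 knockdown and with hairpin 2, 2 to 5 between MV411 hairpins, 0 to 1 between SKNO1 hairpins and for the hairpin difference between lines, and 0 to 2, 6 to 7 and 4 to 4 for the scramble levels of MOLM13 against MV411 and of SKNO1 against MOLM13 and MV411. Counts for SKNO1 scramble against the scramble libraries of the other lines include MIDN as a description. The causes were not tested. The low counts of EGR2 limit every value of that gene.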
